A study of Mus musculus with 20 samples.

Results

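Cell cycle genes were followed in mouse dorsal root ganglia (DRG), which hold the cell bodies of sensory neurons and the glia around them, 1 day after the sciatic nerve was cut. The set held 40 genes, picked by name. Genes of DNA replication and mitosis were taken as a sign of dividing non-neuronal cells, but which cells held their transcripts was not tested. Cyclins, the transcription factor E2f1 and inhibitors of cyclin-dependent kinases (CDK) completed the set. All 40 were found by Ensembl identifier among the 78258 genes of the count table, and 40 of 40 passed the filter on low counts, which left 28564 genes in all.

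As background, a cell that divides first passes the G1 phase, when D-type cyclins with their kinases inactivate the pocket protein Rb1 and free E2F factors. E2F factors then switch on E-type cyclins and the replication machinery, and later the mitotic cyclins, kinases and kinesins build the spindle and split the cell. CDK inhibitors oppose these steps, and one of them, Cdkn1a (p21), is a target of p53. Sensory neurons are postmitotic, whereas satellite glia, Schwann cells, macrophages, fibroblasts and endothelial cells of a ganglion can divide.

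Each of 10 male mice gave 1 library from the ganglia contralateral to the cut and 1 from the ipsilateral ganglia (lumbar levels 4 to 6), which made 4 groups of 5 libraries. The cKO contralateral library called H61 here bears that number in its library name and H6 in its title, so its pairing with the ipsilateral library of H61 rests on the library name. The conditional knockout (cKO) mice were Ahr fl/fl with Thy1CRE-ERT2/EYFP, a tamoxifen-inducible Cre with a yellow fluorescent protein driven by the Thy1 promoter, which is active mainly in neurons. Control mice were described as Ahr f/f or f/+, with no Cre named. By this description both genotypes carried at least 1 floxed allele of the aryl hydrocarbon receptor. The sample titles call the control libraries Wildtype, whereas their library names bear ff. Both genotypes received tamoxifen (100 mg/kg, 5 days) when 17 weeks old, and surgery came 4 weeks later. The treatment entry of the labels speaks of the spinal cord, whereas their protocol describes a cut of the sciatic nerve, and the protocol was followed. Contralateral ganglia come from operated animals, and no unoperated group was analysed here.

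Library totals were 76150333 to 118537209 counts, and levels are given as CPM, counts scaled to a common library total after TMM normalization. Ahr had 21.3 to 27.2 CPM in control contralateral and 19.5 to 21 CPM in cKO contralateral libraries, and 30.2 to 38.1 against 28.9 to 36.8 CPM on the ipsilateral side. The genotypes thus overlapped ipsilaterally and were narrowly apart contralaterally. Counts over whole genes in whole ganglia include cells without Cre and exons outside the floxed part. Their part in these values, and the extent of recombination, were not tested. Thy1, whose promoter drives the transgene, had 602 to 699 CPM in the 10 control and 944 to 1176 CPM in the 10 cKO libraries, with no overlap. All 8 sensory neuron markers were present in all libraries (summed 7537 to 9086 CPM), as were markers of glia. Granulocyte markers (10 genes, among them S100a8, Ngp and the marrow precursor genes Mpo and Elane) differed between libraries. Their sum was 201 CPM in the control contralateral library of mouse H62 against 52.8 to 69.9 in the other 4. In control ipsilateral libraries it was 265 CPM in H96 against 52.1 to 161. In cKO mice H64 was highest, with 277 CPM contralaterally against 32.8 to 196, and 239 CPM ipsilaterally against 80.3 to 153. Counts of called members are given also without these 4 libraries, the highest of each group. They are not a distinct set, since the contralateral library of cKO mouse H95, which was kept, had 196 CPM.

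The members spanned a wide range of abundance. Per kilobase of exon, the mean over the 10 contralateral libraries was highest for the inhibitors Cdkn1a (19.5 CPM per kb) and Cdkn1b (18.5), followed by the replication clamp Pcna (12), E2f1 (11.4) and Ccnd1 (10.9). At the other end stood the kinetochore gene Cenpf (0.0721 CPM per kb), the kinesins Kif2c (0.159) and Kif23 (0.178), the kinase Aurkb (0.192) and cyclin B1 (Ccnb1, 0.200). The proliferation markers Mki67 and Top2a stood at 0.770 and 0.358 CPM per kb, and Cdk1, the kinase that starts mitosis, at 0.307. The lowest count of any member in any library was 15, for Ccnb2, and 30 of the 40 members had over 100 counts in every library.

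Spread between animals divided the set. The coefficient of variation over the 10 contralateral libraries was 67.4% for Ccnb2, 62.2% for Mki67, 56.9% for Ccnb1 and 49.8% for Top2a, but 3.32% for the ribonucleotide reductase subunit Rrm1, 3.63% for Cdkn1b and 3.66% for Pcna. The 12 members called in at least 1 injury comparison had coefficients of 3.63% to 19.8% (median 7.84%), and the 28 called in neither had 3.32% to 67.4% (median 27.3%), with 18 of them over 20%. For these 18 the absence of a call does not show that they stayed the same.

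**Figure D1:**
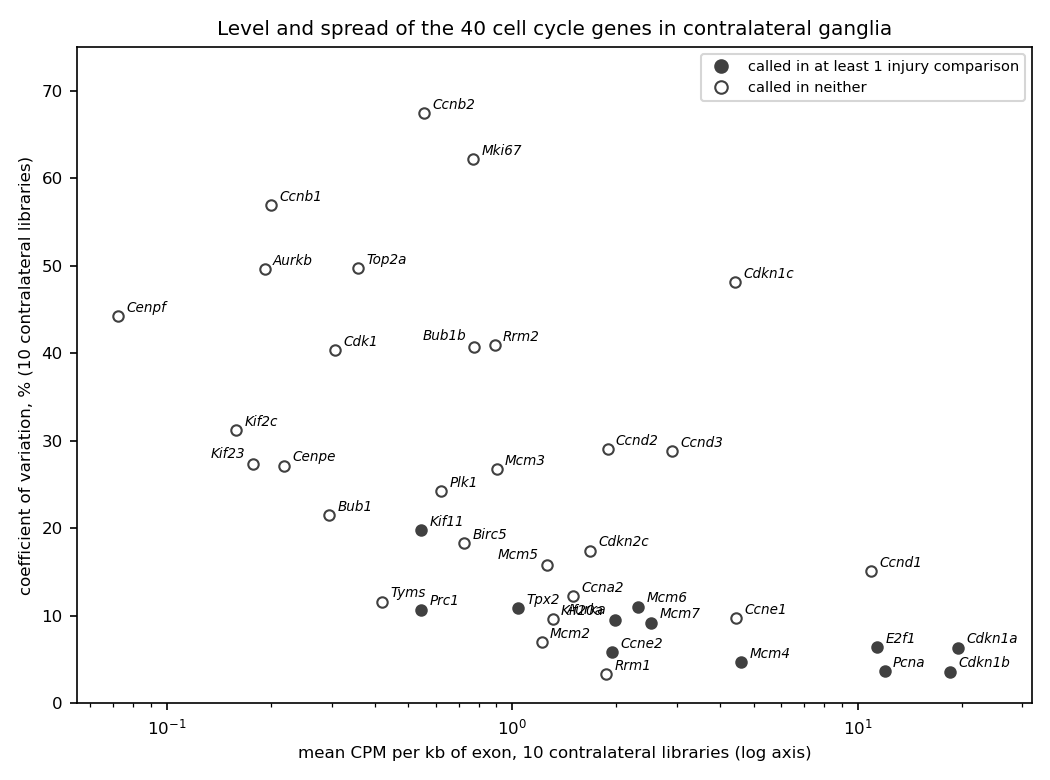
Mean level per kilobase of exon (x, log axis) against the coefficient of variation over the 10 contralateral libraries (y) for each of the 40 members; filled points were called in at least 1 injury comparison and open points in neither. Mki67, Ccnb1 and Ccnb2 lie above 50% on the y axis, while filled points lie between 3.63% and 19.8%.

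The effect of nerve transection was asked first. One day after the cut a small set of members was higher in the ipsilateral ganglia, led by Cdkn1a (2.56-fold in control and 2.68-fold in cKO mice) and Prc1, which bundles microtubules of the central spindle (2.25-fold and 2.66-fold). Smaller rises came with the spindle assembly factor Tpx2, the kinase Aurka, cyclin E2 (Ccne2), the replicative helicase subunits Mcm4 and Mcm6, and Pcna, whereas Cdkn1b (p27) and E2f1 fell. The markers of dividing cells, Mki67, Top2a, Cdk1 and the A-type and B-type cyclins, were not called in either genotype. In this bulk tissue, fewer cells of a type and less RNA per cell cannot be told apart.

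In control mice 9 of 40 members were called higher and 2 lower (edgeR quasi-likelihood test, adjusted p under 0.05 over all genes). The background was 13.8% of all tested genes higher and 16.0% lower. In cKO mice 8 were higher and 3 lower, beside 16.2% and 15.1% of all genes. The members' share called higher was above the background in control and close to it in cKO mice, and the share called lower was below it in both; these shares were not tested. The 8 members that rose in both genotypes were Ccne2, Aurka, Tpx2, Prc1, Mcm4, Mcm6, Pcna and Cdkn1a. Another 2 fell in both (Cdkn1b and E2f1), and 28 were called in neither. The 2 comparisons share no libraries, although all libraries entered 1 fit. The median log2 fold change of the 40 was 0.16 in control and -0.11 in cKO mice, against -0.0047 and -0.030 for all tested genes. Without the 4 libraries rich in granulocyte markers, 12 members were called in control and 11 in cKO mice. The background shares above are from the fit on all libraries, and those without these 4 are not given here.

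**Figure D2:**
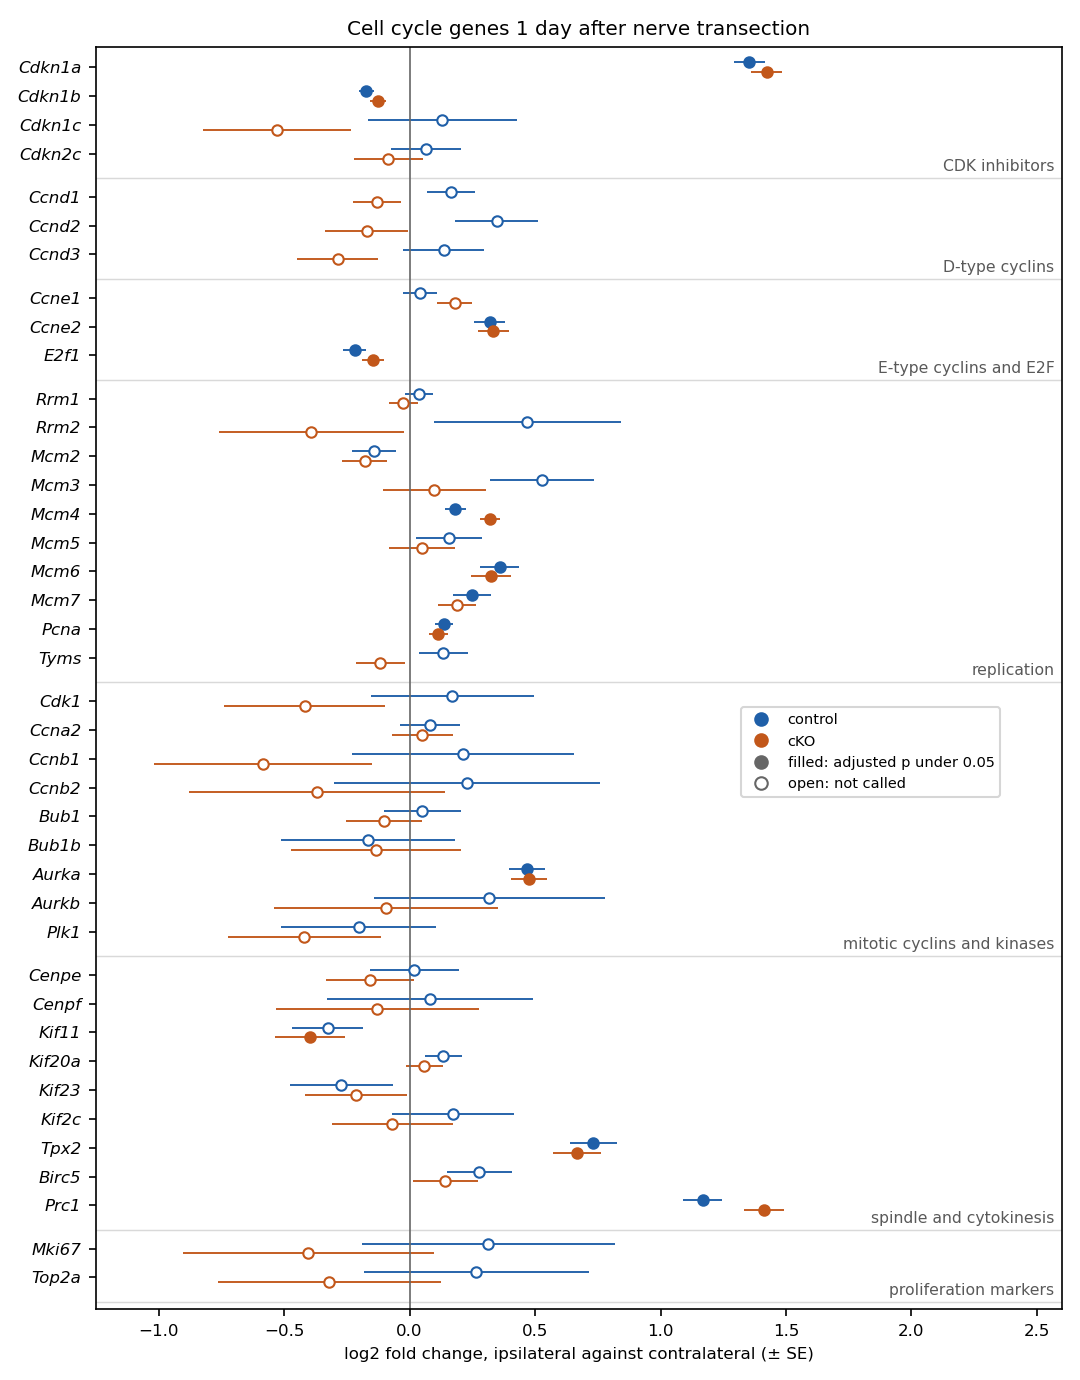
Log2 fold change of each member, ipsilateral against contralateral (x, ± SE from the edgeR fit), grouped by role, in control and cKO mice; filled points were called at an adjusted p under 0.05. Cdkn1a and Prc1 lie beyond 1 in both genotypes, and the 5 longest error bars belong to Ccnb2, Mki67, Aurkb, Top2a and Ccnb1.

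RefSeq promoters of 4 members called in both genotypes are shown, 3 that rose and 1 that fell, chosen after their values were seen. Each window runs from 250 bases before to 50 after the listed start (build GRCm38.p6, 5′ to 3′ on the gene's strand). Capitals mark matches on either strand to CCAAT (the CCAAT box, bound by NF-Y), to TTTGAA (the cell cycle genes homology region, CHR, bound by the DREAM and MuvB complexes) and, in Cdkn1a, to a pair of CATG cores 6 bases apart, as in a binding element of p53.
Cdkn1a, chr17:29090729-29091028, plus strand, the first of 2 starts listed:
Cdkn1a: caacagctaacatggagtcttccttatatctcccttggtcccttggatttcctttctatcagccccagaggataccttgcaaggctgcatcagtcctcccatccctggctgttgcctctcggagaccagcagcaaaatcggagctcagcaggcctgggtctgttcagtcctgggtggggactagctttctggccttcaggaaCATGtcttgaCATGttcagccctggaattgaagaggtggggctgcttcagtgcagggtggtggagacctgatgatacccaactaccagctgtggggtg
Prc1, chr7:80294201-80294500, plus strand, the first of 2 starts listed:
Prc1: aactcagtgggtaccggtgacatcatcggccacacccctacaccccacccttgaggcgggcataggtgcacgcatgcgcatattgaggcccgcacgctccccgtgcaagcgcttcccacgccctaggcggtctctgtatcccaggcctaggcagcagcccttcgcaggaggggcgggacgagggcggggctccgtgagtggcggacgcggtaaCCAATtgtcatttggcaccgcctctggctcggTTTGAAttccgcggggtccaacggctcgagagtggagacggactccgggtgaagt
Aurka, chr2:172370521-172370820, minus strand:
Aurka: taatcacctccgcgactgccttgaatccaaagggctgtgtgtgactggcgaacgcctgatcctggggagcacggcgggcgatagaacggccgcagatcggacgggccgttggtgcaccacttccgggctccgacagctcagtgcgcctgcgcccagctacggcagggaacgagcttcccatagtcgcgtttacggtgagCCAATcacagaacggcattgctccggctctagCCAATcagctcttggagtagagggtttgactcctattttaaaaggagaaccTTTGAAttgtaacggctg
Cdkn1b, chr6:134920151-134920450, plus strand:
Cdkn1b: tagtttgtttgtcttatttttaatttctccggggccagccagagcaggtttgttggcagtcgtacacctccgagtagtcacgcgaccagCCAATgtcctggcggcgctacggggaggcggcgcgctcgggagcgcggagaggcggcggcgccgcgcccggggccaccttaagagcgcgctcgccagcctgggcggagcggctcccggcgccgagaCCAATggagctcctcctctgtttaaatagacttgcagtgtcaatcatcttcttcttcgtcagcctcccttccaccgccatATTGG

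Prc1 has a CCAAT box that begins 37 bases before the start and a CHR that begins 5 bases before it. Aurka has CCAAT boxes that begin 51 and 19 bases before the start and a CHR that begins at base 33 after it. In Cdkn1b 3 CCAAT boxes were found (1 of them on the minus strand, where the printed letters read ATTGG) and no CHR. The CATG pair of Cdkn1a was looked for after its sequence had been seen; 0.770% of 27025 first-listed mouse promoters hold such a pair, 1 of 31 members and 0 of 13 promoters from a list of other p53 targets.

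Among all members, 31 of 40 had a listed promoter. A CHR was present in 41.9% of them (13 of 31), against 18.1% of 27025 promoters of the same length, and a CCAAT box in 74.2% against 37.9%. The E2F motif, searched on both strands in the forms TTTCCCGC, TTTGGCGC, TTTCGCGC and TTTGCCGC, none of which contains another of the searched motifs, was present in 16.1% against 2.32%. By role, the CCAAT box was found in 8 of 9 replication, 7 of 7 mitotic and 5 of 7 spindle promoters. A CHR was found in 5 of 7 mitotic cyclins and kinases, 5 of 7 spindle and cytokinesis genes and 1 of 9 replication genes, and an E2F form in 4 of 9 replication genes and 1 of 7 mitotic ones. By response, a CHR was present in 2 of the 5 promoters of members higher in both genotypes and in 10 of the 22 of members called in neither, counts that were not tested.

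Among the CDK inhibitors Cdkn1a, which blocks CDK2 and binds Pcna, moved most. It had 66.7, 77.2, 65.4, 72.1 and 72.0 CPM in the control contralateral libraries of mice H62, H63, H65, H96 and H97, and 183, 179, 175, 194 and 173 CPM in their ipsilateral libraries. In cKO mice H61, H64, H95, H99 and H100 it had 64.9, 69.4, 74.8, 67.5 and 64.4 CPM contralaterally and 179, 216, 183, 167 and 170 CPM ipsilaterally. Every ipsilateral library of either genotype was above every contralateral one. The log2 fold change was 1.35 (SE 0.0624, adjusted p 1.07e-12) in control and 1.42 (SE 0.0625, adjusted p 4.28e-13) in cKO mice. Within single mice the rise was 2.31-fold to 3.11-fold, in 10 of 10 animals. An antisense gene, AC167363.2, overlaps 7.68% of the exon bases of Cdkn1a and also rose, by 1.23 and 1.34 on the log2 scale; the strand setting of the counting is not given in the sources used here, so reads of the overlap cannot be told apart.

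Cdkn1b, the inhibitor that keeps resting cells out of the cycle, fell slightly in all 10 mice. Its control libraries had 82.8, 88.9, 84.9, 87.8 and 84.5 CPM contralaterally and 79.3, 74.8, 74.2, 76.6 and 75.6 CPM ipsilaterally, in the order of mice given above. Its cKO libraries had 84.9, 85.4, 83.8, 83.5 and 77.5 CPM contralaterally and 76.6, 79.6, 75, 76 and 73.1 CPM ipsilaterally. The groups did not overlap in control mice, while in cKO mice the contralateral library of H100 lay within the ipsilateral range. Fold changes on the log2 scale were -0.17 (SE 0.0307, adjusted p 0.000171) and -0.13 (SE 0.0307, adjusted p 0.00319).

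Cdkn1c (p57) and Cdkn2c (p18), an inhibitor of CDK4 and CDK6, were not called. Cdkn1c had 9.92, 7.38, 5.48, 5.04 and 5.29 CPM in control contralateral and 8.84, 7.32, 4.85, 6.49 and 8.70 CPM in control ipsilateral libraries. Its cKO libraries had 6.60, 15.2, 13.3, 5.64 and 16.1 CPM contralaterally and 6.60, 8.15, 7.5, 5.64 and 11.5 CPM ipsilaterally. The libraries of H64, H95 and H100, made the cKO contralateral group high, and the groups overlapped. The log2 fold change with injury was 0.13 (adjusted p 0.799) in control and -0.53 (adjusted p 0.195) in cKO mice. Cdkn2c had 2.85 to 5.13 CPM in control contralateral (5.13, 4.90, 4.14, 4.51 and 2.85) and 3.66 to 5.79 CPM in control ipsilateral libraries (3.83, 4.49, 4.78, 5.79 and 3.66). In cKO libraries it had 4.30, 5.89, 4.68, 4.10 and 4.59 CPM contralaterally and 4.47, 4.71, 4.06, 4.28 and 4.71 CPM ipsilaterally, with overlap throughout. An opposite-strand gene, Gm44732, overlaps 30.7% of the exon bases of Cdkn1c, and its log2 fold changes were 0.26 (adjusted p 0.605) and -0.59 (adjusted p 0.169), so reads of the overlap cannot be told apart.

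**Figure D3:**
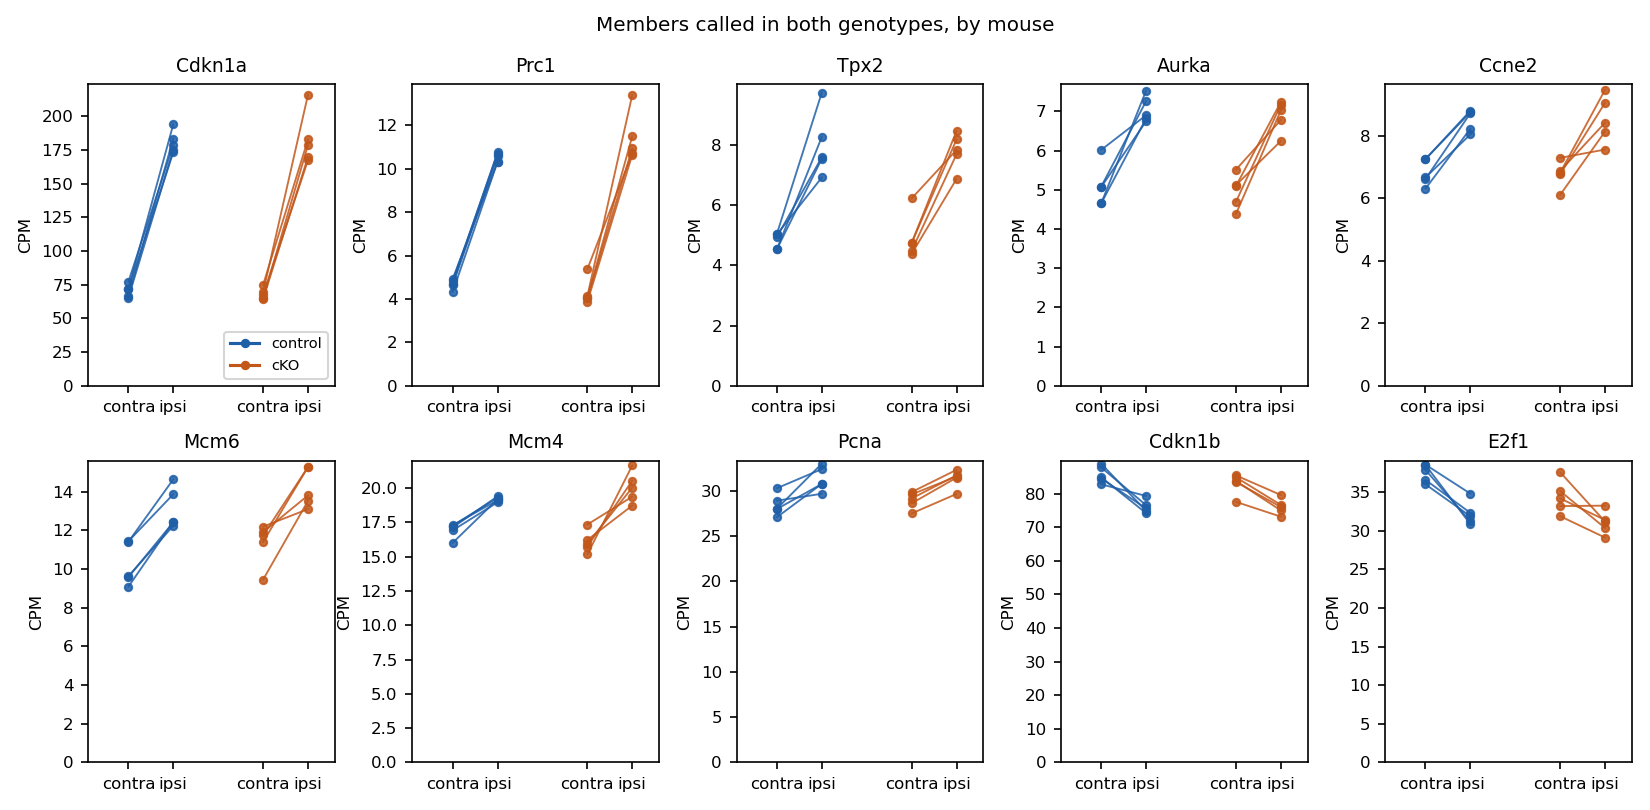
CPM (y, from 0) of the 10 members called in both genotypes, in the contralateral and ipsilateral library of each mouse; each line is 1 mouse. All lines rise for Cdkn1a, Prc1, Tpx2, Aurka, Ccne2, Mcm6, Mcm4 and Pcna, all fall for Cdkn1b, and 9 of 10 fall for E2f1.

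The D-type cyclins, which couple growth signals to CDK4 and CDK6, had higher ipsilateral means in control mice and lower ones in cKO mice, with no call in either. Ccnd1 had 52.5, 47.5, 47.6, 50.2 and 38.8 CPM in control contralateral and 54.5, 52.1, 44.1, 61.6 and 52.9 CPM in control ipsilateral libraries. The cKO mice gave it 51.7, 62.5, 64.7, 44.9 and 55.1 CPM contralaterally and 52.1, 49.96, 49.9, 48.6 and 54.1 CPM ipsilaterally. The groups overlapped in both genotypes, and H64 and H95 stood highest on the cKO contralateral side. The log2 fold changes were 0.16 (adjusted p 0.228) and -0.13 (adjusted p 0.335). The opposite-strand gene LTO1 overlaps 23.4% of the exon bases of Ccnd1, had 58.5 CPM in control contralateral libraries and rose by 0.12 and 0.11 (adjusted p 0.0272 and 0.0392).

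Ccnd2 was higher ipsilaterally in all 5 control mice, with 17.9, 15.1, 12.3, 14 and 14.7 CPM contralaterally and 18.9, 19.7, 14.3, 18.9 and 22.2 CPM ipsilaterally. In the knockout it had 14.9, 21.1, 26.2, 14.8 and 26.7 CPM contralaterally and 15.9, 17.3, 19.4, 17.0 and 22.5 CPM ipsilaterally, lower on the ipsilateral side in H64, H95 and H100 and not in H61 and H99. The log2 fold change in control mice was 0.35 (SE 0.167, adjusted p 0.134). With the mouse as a block it was 0.34 (adjusted p 0.0132) and was called; over the alternatives its adjusted p ran from 0.0132 to 0.324. Ccnd3 had 27.9, 20.9, 18.2, 20.04 and 19.8 CPM in control contralateral and 23.5, 21.6, 19.5, 25.2 and 27.5 CPM in control ipsilateral libraries. It had 22.7, 32.1, 36.8, 19.7 and 37.0 CPM in cKO contralateral and 22.4, 24.7, 24.5, 21.5 and 28.5 CPM in cKO ipsilateral libraries. Its groups overlapped, and the log2 fold changes were 0.14 (adjusted p 0.598) and -0.29 (adjusted p 0.199).

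Of the G1/S genes, Ccne2, which activates CDK2 at the entry to S phase, rose from 6.82 ± 0.419 to 8.51 ± 0.35 CPM in control mice (mean ± SD, n = 5 libraries) and from 6.78 ± 0.426 to 8.53 ± 0.754 CPM in cKO mice. Its log2 fold changes were 0.32 (adjusted p 0.000389) and 0.33 (adjusted p 0.000256), it rose in 10 of 10 mice, and its groups did not overlap. Its paralog Ccne1 went from 12.3 ± 0.939 to 12.7 ± 0.763 CPM in control mice (adjusted p 0.720). In cKO mice Ccne1 had 11.4 ± 1.26 CPM contralaterally and 12.9 ± 0.723 CPM ipsilaterally (log2 fold change 0.18, adjusted p 0.0534). With the mouse as a block the adjusted p was 0.0126. It was 0.0176 without H99 and 0.0386 without the control mouse H65, which leaves the cKO libraries unchanged. Over the alternatives it ranged from 0.0126 to 0.153. E2f1, the transcription factor that activates many S phase genes, fell from 37.5 ± 1.16 to 32.2 ± 1.56 CPM in control mice (log2 fold change -0.22, adjusted p 0.000605) and from 34.4 ± 2.15 to 31.1 ± 1.52 CPM in cKO mice (-0.15, adjusted p 0.0142). The cKO call of E2f1 was lost without H61 (-0.13, adjusted p 0.0660) and without H99 (-0.11, adjusted p 0.0723). It was lost also with no filter (-0.13, adjusted p 0.0639) and with only the libraries compared (-0.13, adjusted p 0.0869), in a range of 0.00636 to 0.0869. The opposite-strand gene Ints8 overlaps 17.4% of the exon bases of Ccne2 and had log2 fold changes of -0.0062 and 0.029.

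The 10 replication genes held 4 called higher in control and 3 in cKO mice, and none lower, beside 13.8% and 16.2% of all tested genes higher and 16.0% and 15.1% lower. Without the 4 libraries rich in granulocyte markers, 4 were higher and 1 (Mcm2) lower in control, and 3 were higher in cKO mice, with Mcm7 in place of Pcna. Mcm2 to Mcm7 encode the subunits of the replicative helicase, and they differed in call. Mcm6 rose from 10.2 ± 1.11 to 13.1 ± 1.07 CPM in control mice (log2 fold change 0.36, adjusted p 0.00137) and from 11.3 ± 1.09 to 14.2 ± 1.02 CPM in cKO mice (0.32, adjusted p 0.00308). Mcm4 rose from 16.9 ± 0.532 to 19.2 ± 0.169 CPM in control (0.18, adjusted p 0.00166) and from 16.1 ± 0.804 to 20.1 ± 1.12 CPM in cKO mice (0.32, adjusted p 3.39e-06). The contralateral and ipsilateral ranges of both genes were apart in both genotypes, and both rose in 10 of 10 mice. Mcm7 was called in control mice (0.25, adjusted p 0.0150) but not without H63 (0.24, adjusted p 0.0572) or H97 (0.23, adjusted p 0.0600), in a range of 0.00346 to 0.0600. In cKO mice Mcm7 was not called (0.19, adjusted p 0.0614) but was with the mouse as a block (0.19, adjusted p 0.0168). It was called also without the control mouse H96 (0.19, adjusted p 0.0384), with the cKO libraries unchanged. The adjusted p ranged over 0.0168 to 0.178.

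Mcm2 and Mcm5 were not called in either genotype. Mcm2 had 8.70, 7.58, 8.57, 8.53 and 7.74 CPM in control contralateral and 7.33, 6.42, 6.61, 9.70 and 7.19 CPM in control ipsilateral libraries. In cKO mice it had 9.61, 8.37, 7.96, 8.56 and 8.94 CPM contralaterally and 7.74, 6.99, 7.39, 7.81 and 8.44 CPM ipsilaterally. It was lower ipsilaterally in 4 control and 5 cKO mice, with H96 the exception, and its log2 fold changes were -0.14 (adjusted p 0.255) and -0.18 (adjusted p 0.135). Without H96 both were called, at -0.23 (adjusted p 0.0215) in control and -0.17 (adjusted p 0.0444) in cKO mice. H96 is a control mouse, so the cKO libraries were unchanged, and the cKO call came through the fit shared by all groups. The adjusted p ranged over 0.0202 to 0.630 in control and 0.0444 to 0.321 in cKO mice. Mcm5 had 4.18 to 5.74 CPM in control contralateral (5.74, 4.40, 4.21, 5.44 and 4.18), 4.42 to 7.01 CPM in control ipsilateral (5.01, 4.59, 4.42, 7.01 and 5.68) libraries. Its cKO libraries had 6.62, 4.98, 5.45, 4.33 and 4.97 CPM contralaterally and 4.80, 6.07, 5.46, 4.90 and 6.06 CPM ipsilaterally, with overlap in both genotypes. Its log2 fold changes were 0.16 (adjusted p 0.426) and 0.051 (adjusted p 0.820).

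Pcna, the clamp that holds DNA polymerase, rose slightly in 10 of 10 mice. It had 28.1, 27.1, 28.9, 30.3 and 28.0 CPM in control contralateral and 33.0, 30.8, 29.7, 32.4 and 30.8 CPM in control ipsilateral libraries. The cKO mice gave it 29.6, 29.2, 29.9, 27.5 and 28.6 CPM contralaterally and 31.6, 31.7, 32.3, 29.7 and 31.5 CPM ipsilaterally. The ranges overlapped narrowly in both genotypes, through H96 and H65 in control and H95 and H99 in cKO mice. Fold changes on the log2 scale were 0.14 (SE 0.0370, adjusted p 0.00689) and 0.11 (SE 0.0370, adjusted p 0.0217). The cKO call was lost without H64 (0.11, adjusted p 0.0627), without H100 (0.11, adjusted p 0.0726) and without the 4 libraries rich in granulocyte markers (0.12, adjusted p 0.0554), in a range of 0.00701 to 0.0726.

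Mcm3 and the nucleotide synthesis genes Rrm1, Rrm2 and Tyms were not called in either genotype. Mcm3 went from 2.96 ± 0.775 to 4.27 ± 1.45 CPM in control mice (log2 fold change 0.53, adjusted p 0.0646) and was called with the mouse as a block (0.51, adjusted p 0.0276) and without H62 (0.73, adjusted p 0.0204), in a range of 0.0204 to 0.176; in cKO mice its log2 fold change was 0.10 (adjusted p 0.772). Rrm1 had 20.3 ± 0.4 and 20.8 ± 2.31 CPM in control mice and 20.9 ± 0.785 and 20.6 ± 1.11 CPM in cKO mice. Its partner Rrm2, the subunit that cells make in S phase, had 1.95 ± 0.829 and 2.70 ± 1.93 CPM in control (adjusted p 0.393) and 2.98 ± 0.967 and 2.27 ± 0.424 CPM in cKO mice (adjusted p 0.468). Tyms, which makes thymidylate, had log2 fold changes of 0.13 (adjusted p 0.343) and -0.12 (adjusted p 0.402).

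Of the 9 mitotic cyclins and kinases, Aurka was the only one called, with and without the 4 libraries rich in granulocyte markers. This count was no larger than the background of 13.8% (control) and 16.2% (cKO) of all tested genes higher. This kinase of the centrosome and spindle rose from 5.09 ± 0.557 to 7.05 ± 0.331 CPM in control mice (log2 fold change 0.47, SE 0.0718, adjusted p 3.23e-05) and from 4.96 ± 0.435 to 6.89 ± 0.402 CPM in cKO mice (0.47, SE 0.0718, adjusted p 2.76e-05), in 10 of 10 mice and without overlap. Aurkb, the kinase of the chromosomal passenger complex, had 0.457 ± 0.226 and 0.570 ± 0.413 CPM in control and 0.673 ± 0.311 and 0.630 ± 0.115 CPM in cKO mice. The log2 fold changes of the other 8 members spanned -0.20 (Plk1) to 0.32 (Aurkb) in control and -0.58 (Ccnb1) to 0.051 (Ccna2) in cKO mice, with a lowest adjusted p of 0.669 and 0.327. Exosc9, on the opposite strand, overlaps 12.5% of the exon bases of Ccna2 and had 34.4 CPM in control contralateral libraries beside 5.93 CPM of Ccna2.

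Cdk1 shows the spread of this group. It had 1.87, 0.857, 0.915, 1.73 and 0.823 CPM in control contralateral and 0.696, 1.21, 0.931, 2.45 and 1.72 CPM in control ipsilateral libraries. In the knockout it had 2.64, 2.13, 1.69, 1.01 and 1.48 CPM contralaterally and 1.00, 1.47, 1.48, 1.40 and 1.33 CPM ipsilaterally. The ranges overlapped in both genotypes: the ipsilateral value was lower in H62 and higher in the other 4 control mice, and higher in H99 and lower in the other 4 cKO mice. The log2 fold changes were 0.17 (SE 0.324, adjusted p 0.756) and -0.42 (SE 0.321, adjusted p 0.357). Leaving out single mice moved them between -0.017 (without H97) and 0.53 (without H62) in control, and between -0.58 (without H99) and -0.15 (without H61) in cKO mice.

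Of the 9 spindle and cytokinesis genes 2 rose in both genotypes, with and without those 4 libraries, beside 13.8% and 16.2% of all tested genes higher. Prc1 (values in all libraries given after they were seen) had 4.93, 4.32, 4.81, 4.71 and 4.64 CPM in control contralateral and 10.3, 10.3, 10.7, 10.8 and 10.6 CPM in control ipsilateral libraries. In cKO mice it had 5.38, 4.13, 4.06, 3.87 and 4.03 CPM contralaterally and 10.7, 13.4, 11.5, 10.6 and 10.9 CPM ipsilaterally. No library of 1 side reached the other side, and the control animals were close to one another. Fold changes on the log2 scale were 1.17 (SE 0.0777, adjusted p 2.67e-10) and 1.41 (SE 0.0782, adjusted p 1.19e-11), and the rise within mice was 1.99-fold to 3.24-fold. The opposite-strand gene Rccd1 overlaps 11.1% of the exon bases of Prc1 and rose less, by 0.27 in both genotypes (adjusted p 0.0134 and 0.0144).

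Tpx2, which activates Aurka on spindle microtubules, rose with it, from 4.82 ± 0.260 to 8.0 ± 1.08 CPM in control mice (log2 fold change 0.73, SE 0.0943, adjusted p 3.87e-06) and from 4.91 ± 0.747 to 7.80 ± 0.604 CPM in cKO mice (0.67, SE 0.0942, adjusted p 1.19e-05). It was higher ipsilaterally in 10 of 10 mice, and the ranges were apart. Kif11, the kinesin that separates spindle poles, went the other way and was called in cKO but not in control mice (log2 fold change -0.40, adjusted p 0.0369; control -0.33, adjusted p 0.0907), which is no test of a difference between genotypes. Kif11 had 6.16 CPM in the contralateral library of cKO mouse H61 against 3.41 to 3.93 in the other 4, and without H61 the value was -0.17 (adjusted p 0.290). The call was lost also without the control mouse H63 (adjusted p 0.0514), without H100 (0.0558) and with the mouse as a block (-0.37, adjusted p 0.0685). It was lost also with no filter (-0.38, adjusted p 0.0786) and with only the libraries compared (-0.38, adjusted p 0.115), in a range of 0.0254 to 0.290 over the alternatives. In control mice Kif11 was called without the cKO mouse H61 (-0.33, adjusted p 0.0191, range 0.0191 to 0.292), with the control libraries unchanged. The remaining 6 genes (Cenpe, Cenpf, Kif20a, Kif23, Kif2c and Birc5) were not called, with log2 fold changes of -0.27 (Kif23) to 0.28 (Birc5) in control and -0.21 (Kif23) to 0.14 (Birc5) in cKO mice. Kif20a shares 29.3% of its exon bases with the opposite-strand gene Cdc23, which had 34.3 CPM in control contralateral libraries beside 5.54 CPM of Kif20a.

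The proliferation markers differed more between mice than between sides. Mki67, made by cells in any active phase of the cycle, had 12.2, 3.22, 3.01, 5.85 and 4.45 CPM in control contralateral and 4.51, 3.27, 3.46, 15.6 and 8.87 CPM in control ipsilateral libraries. Its cKO libraries had 18.2, 9.34, 8.84, 3.53 and 8.81 CPM contralaterally and 3.95, 9.10, 8.61, 8.65 and 6.52 CPM ipsilaterally. H62 and H61 were highest on the contralateral sides and H96 on the control ipsilateral side, and all groups overlapped. Within mice the ratio of ipsilateral to contralateral spanned 0.370 to 2.66 (control) and 0.217 to 2.45 (cKO), above 1 in 5 of 10 animals. The log2 fold changes were 0.31 (SE 0.505, adjusted p 0.706) and -0.40 (SE 0.5, adjusted p 0.598). Over the alternatives the control value spanned -0.17 (without H96) to 0.91 (without H62) and the cKO value -0.67 (without H99) to 0.11 (without H61), so no direction can be given.

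Top2a, the topoisomerase that untangles chromosomes, followed the same libraries. It had 4.28, 1.44, 1.72, 3.81 and 1.65 CPM in control contralateral and 1.59, 1.88, 1.99, 6.35 and 3.75 CPM in control ipsilateral libraries. The cKO mice gave it 5.73, 4.64, 4.75, 1.53 and 2.68 CPM contralaterally and 1.57, 4.35, 3.78, 2.99 and 2.78 CPM ipsilaterally. H62, H96 and H61 again held the high values, with overlap between all groups, and the log2 fold changes were 0.27 (adjusted p 0.722) and -0.32 (adjusted p 0.643). The control value moved to 0.030 without H96 and to 0.69 without H62, and the cKO value to -0.50 without H99 and to 0.031 without H61.

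The same few libraries were extreme for most members of replication, mitosis and proliferation. Of the 30 replication, mitosis and proliferation members, 20 were highest in H62 among control contralateral libraries, 25 in H96 among control ipsilateral, 24 in H61 among cKO contralateral and 16 in H64 among cKO ipsilateral libraries, and 22 were lowest in H99 among cKO contralateral libraries. Without H96 and without H62 in turn, the control log2 fold change was 0.048 and 0.83 for Rrm2, -0.15 and 0.66 for Ccnb1, and -0.12 and 0.99 for Ccnb2. Without H99 and without H61 the cKO value was -0.55 and -0.12 for Rrm2, -0.83 and -0.16 for Ccnb1, and -0.61 and 0.086 for Ccnb2. The summed granulocyte markers (10 genes, none at 0 in any library) ranged over 52.8 to 201 CPM in control contralateral, 52.1 to 265 in control ipsilateral, 32.8 to 277 in cKO contralateral and 80.3 to 239 in cKO ipsilateral libraries. H62, H96 and H64 also had the highest granulocyte sum of their groups on those sides, and H99 had the lowest of the cKO contralateral group. In H61 the order differed, with 134 CPM of granulocyte markers contralaterally, below H64 (277) and H95 (196), beside the highest Mki67 of any library. Erythroid markers were also high in H62 contralaterally (747 CPM against 316 to 406) and highest of any library in H64 contralaterally (867 CPM). H62 was also highest of its group for fibroblast (1356 CPM), endothelial (127) and muscle (341) markers. H96 was highest of the control ipsilateral libraries for satellite glia (1357 CPM), Schwann cell (4455), macrophage (168), erythroid (636), fibroblast (1519) and endothelial (153) markers. It was not highest for sensory neuron or muscle markers, and H64 ipsilaterally was highest for granulocyte markers only. The part of these cells in the members' values was not tested.

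**Figure D4:**
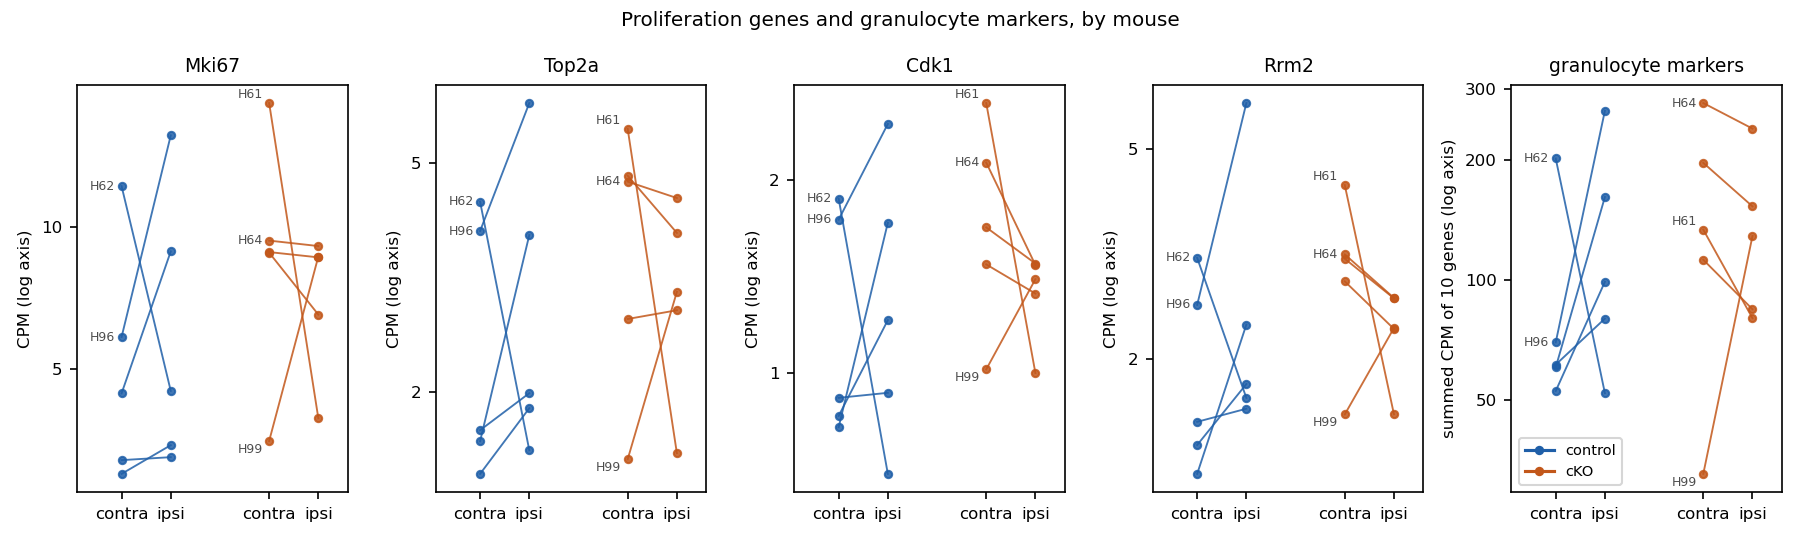
CPM of Mki67, Top2a, Cdk1 and Rrm2 and summed CPM of 10 granulocyte markers (y, log axes) in the contralateral and ipsilateral library of each mouse; each line is 1 mouse and some mice are named. The lines cross: H62 and H61 go down and H96 goes up in each gene shown, while the granulocyte sum goes down in H62 and H61 and up in H96.

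The contralateral and ipsilateral ranges did not overlap for 9 members in control mice, beside 23.6% of all tested genes, and for 7 in cKO mice, beside 20.2%. The 7 members apart in both genotypes were Ccne2, Aurka, Tpx2, Prc1, Mcm4, Mcm6 and Cdkn1a. Both shares were near the background.

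Whether these genes differed between cKO and control mice was asked on each side. No member was called on the contralateral side (edgeR; 0.0735% of all tested genes were called), with 6 of 40 at an unadjusted p under 0.05, beside 5006 of the 28564 tested genes (17.5%), a share no smaller than the members'. No member was called on the ipsilateral side either (0.00700% of all genes), with 0 at an unadjusted p under 0.05, beside 674 of all tested genes (2.36%). The contralateral mean was higher in cKO mice for 30 of 40 members and the ipsilateral mean for 24, shares not given here for all tested genes. Many members moved with the same libraries, so these counts are not of independent genes. The median log2 difference was 0.14 and 0.014, against -0.013 and 0.00022 for all tested genes. No member had genotype ranges apart on either side, but the share of all tested genes with genotype ranges apart is not given here. DESeq2 called 2 members contralaterally, Ccnd2 and Ccnd3, and 0 ipsilaterally. The shares of all genes above are from edgeR, and those called by DESeq2 are not given here.

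In the contralateral comparison of genotypes, the 3 D-type cyclins, Cdkn1c and E2f1 had the 5 lowest p-values of the members. Ccnb2 (0.85), Mki67 (0.76) and Ccnb1 (0.73) had differences larger than those of the D-type cyclins, with higher p-values. The cKO mean was 29.7 ± 8.03 against 21.4 ± 3.77 CPM for Ccnd3 (log2 difference 0.47, adjusted p 0.154), 20.7 ± 5.83 against 14.8 ± 2.02 for Ccnd2 (0.49, adjusted p 0.153) and 55.8 ± 8.08 against 47.3 ± 5.19 for Ccnd1 (0.24, adjusted p 0.214). Cdkn1c had 11.4 ± 4.89 against 6.62 ± 2.06 CPM (0.78, adjusted p 0.193), and E2f1 had 34.4 ± 2.15 against 37.5 ± 1.16 CPM (-0.13, adjusted p 0.157). Without mouse H99 these 5 genes were called, Ccnd1 at 0.31 (adjusted p 0.0392), Ccnd2 at 0.59 (0.0317), Ccnd3 at 0.59 (0.0190), Cdkn1c at 0.95 (0.0366) and E2f1 at -0.16 (0.0258). The share of all tested genes called without H99 is not given here, so these 5 calls cannot be set against a background. Over the alternatives their adjusted p ran up to 0.490, 0.402, 0.407, 0.448 and 0.443 in the same order. The values given above by library show that H64, H95 and H100 carried the higher means of Ccnd2, Ccnd3 and Cdkn1c, while H61 and H99 lay within the control range.

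Markers of connective tissue, and less clearly of macrophages, were high in the same cKO contralateral libraries as Ccnd2, Ccnd3 and Cdkn1c. The sum of 6 fibroblast markers was 2236, 1980 and 1685 CPM in the contralateral libraries of H64, H95 and H100, against 1003 and 935 CPM in H61 and H99 and 802 to 1356 CPM in control contralateral libraries. The sum of 8 cartilage, bone and tendon markers was 125, 206 and 81.2 CPM in H64, H95 and H100, against 64.6 and 48.0 CPM in H61 and H99 and 40.04 to 65.6 CPM in controls. The sum of 8 macrophage markers was 189, 139 and 136 CPM in H64, H95 and H100, against 94.2 and 77.1 CPM in H61 and H99, but 76.1 to 139 CPM in controls. Muscle markers (5 genes) were high in H100 alone of these, at 1575 CPM. None of the connective tissue and macrophage markers was at 0 in any library, and none was called between genotypes on either side. With injury 6 of the 8 cartilage, bone and tendon markers were lower in cKO and 1 in control mice, beside 15.1% and 16.0% of all tested genes. Their part in the higher cyclin and Cdkn1c values was not tested.

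**Figure D5:**
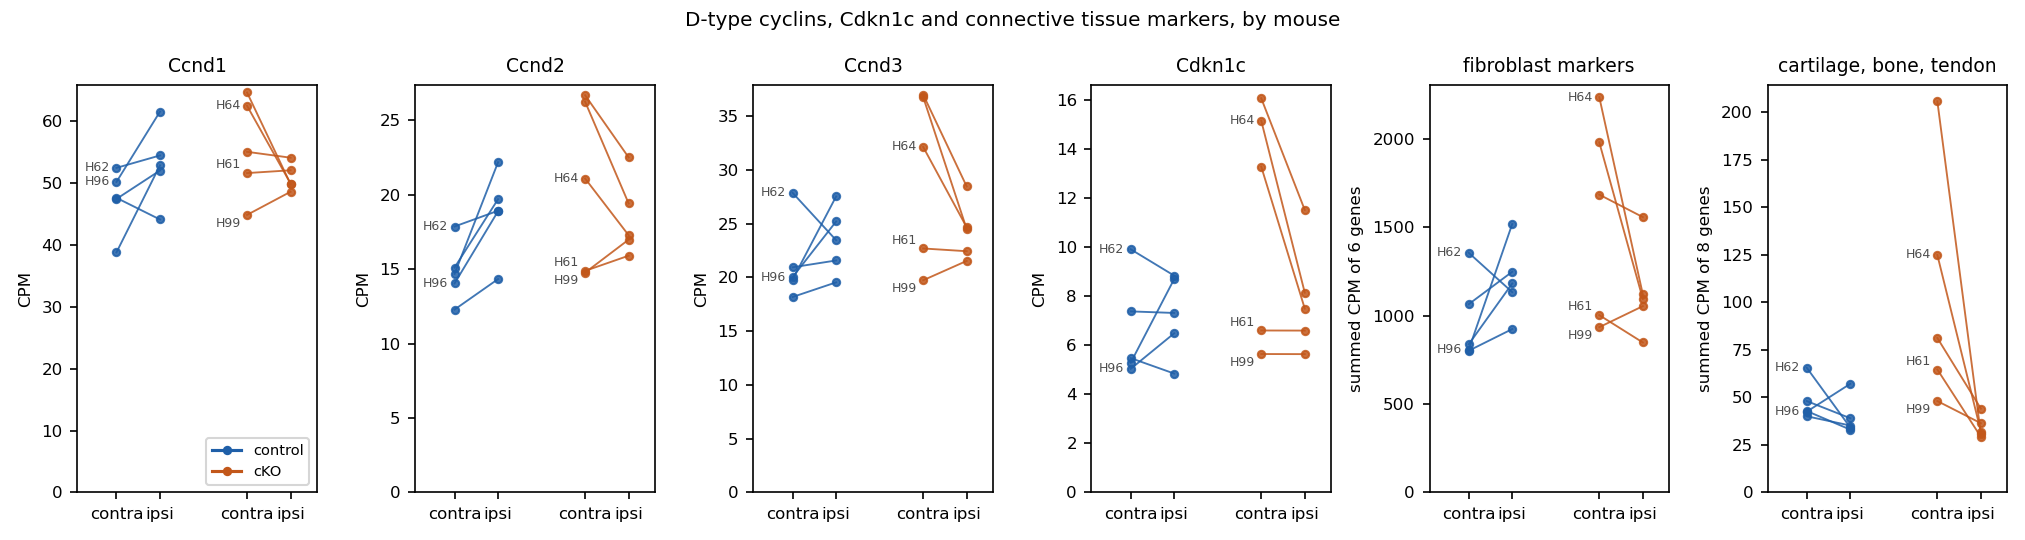
CPM of Ccnd1, Ccnd2, Ccnd3 and Cdkn1c and summed CPM of 6 fibroblast and 8 cartilage, bone and tendon markers (y, from 0) in the contralateral and ipsilateral library of each mouse; each line is 1 mouse. The 3 cKO mice with the highest Ccnd2, Ccnd3 and Cdkn1c on the contralateral side also have the highest fibroblast sums.

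The response to injury was then compared between genotypes by the interaction term. No member was called (edgeR; 0% of all tested genes were called, 2799 of which had an unadjusted p under 0.05, and DESeq2 called 0 members). Of the 40 members 4 had an unadjusted p under 0.05: Prc1 (0.24 more in cKO mice, adjusted p 0.498), Mcm4 (0.14, adjusted p 0.498), Ccnd2 (-0.52, adjusted p 0.505) and Ccnd1 (-0.29, adjusted p 0.505). The interaction was below 0 for 30 members, with a median of -0.12 against 0.011 for all genes. The share of all tested genes below 0 is not given here. Many members moved with the same libraries, so they are not independent. Without the 4 libraries rich in granulocyte markers, 0 members were called in either genotype comparison and in the interaction. For Cdkn1a it was 0.068 (SE 0.0868, adjusted p 0.813), small beside its injury response. For Mki67 it was -0.72 with an SE of 0.711, about as large as the value.

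Other genes of the same pathways, from lists fixed by name, give the setting. Of 22 further replication genes 2 rose and 8 fell in each genotype, beside 13.8% (control) and 16.2% (cKO) of all tested genes higher and 16.0% and 15.1% lower. Cdt1, which loads the helicase onto origins, rose from 1.37 ± 0.247 to 3.19 ± 0.617 CPM in control (log2 fold change 1.22, adjusted p 3.32e-06) and from 1.75 ± 0.314 to 3.06 ± 0.533 CPM in cKO mice (0.81, adjusted p 0.000337). The other that rose was the histone mRNA binding protein Slbp, by 0.21 and 0.16, named after its values were seen. Dut, which removes dUTP from the nucleotide pool, fell by 0.23 in control and by 0.31 in cKO mice (adjusted p 0.000314 and 1.31e-05). Cdc45, a helicase cofactor, fell by 0.38 in control mice (adjusted p 0.0144), and its cKO value was -0.17 (adjusted p 0.280).

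Of 28 further mitosis genes 4 rose and 3 fell in each genotype, shares near the 13.8% and 16.2% of all tested genes higher and no larger than the 16.0% and 15.1% lower. The kinesin Kif22 rose from 3.15 ± 0.574 to 8.88 ± 0.377 CPM in control (log2 fold change 1.49, adjusted p 1.03e-09) and from 3.25 ± 0.281 to 8.96 ± 1.33 CPM in cKO mice (1.46, adjusted p 1.12e-09). Foxm1, a transcription factor of mitotic genes, rose by 0.80 and 0.68 (adjusted p 3.67e-06 and 2.29e-05), and Ccnf by 0.65 and 0.69 (adjusted p 0.00179 and 0.00114). Anln, an actin binding protein of the cleavage furrow, fell by 0.22 and 0.34 (adjusted p 0.0439 and 0.00237). The median of the list was 0.081 in control and -0.077 in cKO mice, and its lowest log2 fold changes were -0.22 and -2.40. The latter belonged to the ubiquitin-conjugating enzyme Ube2c, named after its values were seen, which was not called (adjusted p 0.13). In each genotype 21 of the 28 were not called.

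Of 18 G1 kinases, pocket proteins and further E2F and CDK inhibitor genes, 5 rose and 2 fell in control and 4 rose and 2 fell in cKO mice, with log2 fold changes between -0.34 and 0.33. The shares of all tested genes were 13.8% and 16.2% higher and 16.0% and 15.1% lower. Cdk2 rose in control mice from 1.39 ± 0.155 to 1.71 ± 0.189 CPM (log2 fold change 0.30, adjusted p 0.0498), and its cKO value was -0.22 (adjusted p 0.146). On the contralateral side Cdk2 was higher in cKO mice, 2.21 ± 0.335 against 1.39 ± 0.155 CPM (log2 difference 0.67, adjusted p 0.0209), with ranges apart. Rb1 had values of 0.091 (adjusted p 0.281) in control and 0.19 (adjusted p 0.0157) in cKO mice, Cdkn2b of 0.22 (adjusted p 0.0669) and 0.27 (adjusted p 0.0189), and Cdkn3 of 0.22 (adjusted p 0.0248) and 0.18 (adjusted p 0.0745).

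Since Cdkn1a is a p53 target, 15 other p53 targets were read beside it, and 9 rose and 1 fell in each genotype, beside 13.8% and 16.2% of all tested genes higher and 16.0% and 15.1% lower. Gadd45a, a stress sensor of growth arrest that other factors also induce, went from 18.7 ± 1.55 to 150.2 ± 5.22 CPM in control (log2 fold change 3.0, adjusted p 2.46e-18) and from 17.8 ± 1.14 to 150.3 ± 11.8 CPM in cKO mice (3.08, adjusted p 1.67e-18). Sesn2 rose by 1.32 and 1.04 (adjusted p 1.50e-10 and 4.29e-09), the antiproliferative gene Btg2 by 1.03 and 0.74 (adjusted p 1.38e-07 and 9.77e-06), and Plk3 by 0.27 and 0.57 (adjusted p 0.00111 and 1.82e-07). On the contralateral side Plk3 was lower in cKO mice (log2 difference -0.32, adjusted p 0.0359). Medians of the list were 0.23 and 0.31, above those of all tested genes (-0.0047 and -0.030). The log2 fold change was below 0 for 2 of the 15 in control and 6 in cKO mice. Whether p53 had a part in these changes or in the rise of Cdkn1a was not tested.

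Markers of the ganglion's cell types were read with the same test. In control mice 3 of 6 satellite glia markers, 2 of 6 endothelial markers and 1 of 8 macrophage markers were higher ipsilaterally, and in cKO mice 2 satellite glia markers were, beside 13.8% and 16.2% of all tested genes. Of the 8 sensory neuron markers 3 were lower in control and 2 in cKO mice, beside 16.0% and 15.1% of all tested genes. Summed satellite glia markers were 1029 to 1125 CPM in control contralateral and 1227 to 1357 CPM in control ipsilateral libraries, and 987 to 1214 against 1198 to 1226 CPM in cKO libraries. No marker of Schwann cells, fibroblasts, T cells, B cells, granulocytes, erythroid cells or muscle was called in either injury comparison. The part of glial or other cells in the rise of Prc1, Aurka, Tpx2 and Cdkn1a was not tested.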

How the data were processed

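The authors deposited whole-number exonic counts per gene for 20 libraries, without normalization; a deposited FPKM table was not used. Per the labels' protocols, RNA was extracted with an RNeasy kit and stranded mRNA libraries were read as paired 150 bp reads. The submitters' processing notes name HISAT2, Picard and the builds mm10 and mm39 without saying which served the counts; the counting program and its strand setting are not given in the sources used here. Symbols were matched by Ensembl identifier (51487 of 78258, with 98.1% of counts), exon lengths came from GENCODE release M21, and promoters from RefSeq (GRCm38.p6).

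Counts were fitted in R 4.3.3 with edgeR 4.0.16 (filterByExpr with a minimum count of 10 and minimum total of 15, TMM, robust quasi-likelihood F-test), as 1 model of 4 group means, checked on simulated counts. P-values were adjusted by Benjamini-Hochberg over all 28564 tested genes of each of 5 comparisons, and a gene was called under 0.05. CPM are TMM-scaled, as mean ± SD. The members and lists were chosen with earlier results of these data known. Values in every library are given for 13 members named by rule, and for Prc1. From each list of other genes, at most the 4 called genes with the largest log2 fold change are named, and a gene that the rule would name is not reported here. Alternatives were DESeq2 1.42.0, RLE size factors, a filter at a mean CPM of 1 or no filter at all, the mouse as a block, only the libraries compared and leaving out each mouse. Another, added after seeing the data, left out the library highest in granulocyte markers in each of the 4 groups. All groups share 1 fit, so leaving out a mouse of 1 genotype can move the adjusted p of the other genotype, whose libraries stay the same.

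The 2 libraries of a mouse are paired, since they come from the same animal. Across genes, how far both libraries of a mouse departed from their group means correlated at a median of 0.186 over 10 mice (-0.0546 to 0.361). The main fit had no term for the mouse, so its p-values leave this pairing out. They measure the spread between libraries within groups, where each library comes from a different mouse. Only the alternative with the mouse as a block takes the pairing into account. No source says how libraries were replicated beyond the mouse.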

Additional observations from a re-analysis of the deposited data

Results flagged for a closer look

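In groups of 5 libraries, a value was singled out when its gap to the nearest other library exceeded 0.71 of the range of its group. This happened in 21 of 208 groups of 5 values (the 40 members and the marker sums), where chance would give about 10.4 if the groups were independent and normally distributed. The groups share libraries and many members moved together, so no excess over chance can be read from this.

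Mouse H61 had high contralateral values among cKO mice for Kif11 (6.16 CPM against a next value of 3.93; gap 0.812 of the range), Prc1 (5.38 against 4.13; 0.826), Tpx2 (6.22 against 4.74; 0.803) and Cenpe (3.10 against 1.90; 0.733), and a low ipsilateral value for Ccnb1 (0.441 against 0.718; 0.746). Control mouse H96 had high ipsilateral values for Rrm2 (6.12 against 2.32; 0.842), Bub1b (4.25 against 2.32; 0.747), Rrm1 (24.8 against 20.5; 0.742), Mcm2 (9.70 against 7.33; 0.723) and Mcm3 (6.77 against 4.27; 0.714). Control mouse H62 had high contralateral values for Cenpe (2.40 against 1.65; 0.858) and Ccnd3 (27.9 against 20.9; 0.715) and a low one for Mcm4 (16.0 against 16.9; 0.713).

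Single values stood apart in other mice. Kif23 was high in the cKO ipsilateral library of H95 (1.69 against 1.12; 0.910), Mcm6 was low in the cKO contralateral library of H99 (9.46 against 11.4; 0.713), and Cdkn1b was low in the cKO contralateral library of H100 (77.5 against 83.5; 0.756).

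Marker sums also stood apart. In control contralateral libraries these were granulocyte markers in H62 (201 against 69.9 CPM; 0.885), erythroid markers in H62 (747 against 406; 0.793) and T cell markers in H96 (10.4 against 4.24; 0.737). Cartilage, bone and tendon markers were high in the control ipsilateral library of H96 (57.1 against 39.0; 0.751), and muscle markers in the cKO contralateral library of H100 (1575 against 57.6; 0.966).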

How the results depend on the processing

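The number of called members stayed within 1.5 times in both injury comparisons, at 10 to 13 in control and 9 to 13 in cKO mice over the alternatives, including the replicate block (13 and 12). Shares of all tested genes called under the alternatives are not given here, so no count of members under an alternative is set against a background. On the contralateral side the count between genotypes was 0, but 2 with DESeq2 and 0 to 5 when each mouse was left out (5 without H99); the block gave 0 called members for both genotype comparisons and the interaction. The block changed the call of Ccnd2 and Mcm3 in control and of Ccne1, Mcm7 and Kif11 in cKO mice, as given above, and of no other member. Of 3340 values of single members under an alternative, 28 gained a call, 15 lost one and 20 changed sign and moved by at least 1 SE. Another 186, called in neither fit, changed sign and moved by less than 1 SE.

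Among these changes of sign, all in members not called in that comparison, leaving out each mouse gave ranges of log2 fold change with injury of -0.39 to 0.0081 (Kif23) and -0.019 to 0.073 (Rrm1) in control and -0.67 to 0.11 (Mki67) and -0.24 to 0.10 (Cenpe) in cKO mice. Between genotypes they were -0.14 to 0.12 (Bub1), -0.011 to 0.34 (Cenpe), -0.11 to 0.15 (Kif11) and -0.072 to 0.069 (Tpx2) contralaterally, and -0.040 to 0.054 (Rrm1), -0.38 to 0.29 (Rrm2), -0.14 to 0.16 (Mcm3) and -0.050 to 0.048 (Cdkn1a) ipsilaterally. For the interaction they were -0.42 to 0.22 (Plk1), -0.33 to 0.084 (Cenpe) and -0.17 to 0.16 (Kif11). They came without H62 (Kif23, Bub1), H96 (Rrm1, Rrm2, Mcm3, Plk1), H61 (Mki67, Cenpe, Kif11, Tpx2) or H64 (Cdkn1a). Without the 4 libraries rich in granulocyte markers, values changed sign for Kif2c with injury in control mice (-0.071) and in the interaction (0.20), for Bub1 (0.15) and Aurka (0.050) contralaterally and for Rrm2 ipsilaterally (0.24). The cause was not tested. The fit on only the libraries compared gives no interaction and was not run for it. Depth limits most the 10 members with a count of 100 or fewer in some library.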
